A study of Homo sapiens with 4 samples.

Results

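SR proteins and heterogeneous nuclear ribonucleoproteins (hnRNPs) are RNA-binding proteins that decide which exons of a pre-mRNA are kept. SR proteins bind exonic enhancers through RNA recognition motifs and recruit the spliceosome through arginine- and serine-rich domains, whereas hnRNPs coat nascent RNA and often repress the exons next to which they bind. ESRP1, ESRP2, RBFOX2, MBNL1, MBNL2 and QKI are regulators whose balance differs between epithelial and mesenchymal cells. The genes described here were taken from a table of read counts by their symbols: every symbol that starts with SRSF or HNRNP, plus TRA2A, TRA2B, PTBP1, PTBP2, PTBP3 and the regulators named above, without pseudogene names and hyphenated names. This gave 46 genes of the 39634 rows with values. The expression level was not used in the choice.

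Polyadenylated RNA came from BEAS-2B, an immortalized line of human bronchial epithelium, kept in N2B27 medium. Both groups carried a short hairpin RNA (shRNA). In 2 control libraries it was a control hairpin, and in 2 libraries labelled Fer knockdown it was directed at FER, a cytoplasmic tyrosine kinase. Neither the hairpin sequences, nor their promoter, nor whether the cells were clones was stated in the labels. The labels number the replicates without naming separate cultures, so each p-value rests on the spread between these libraries, and that spread may be technical.

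The libraries held 21422976 to 25169713 counts. For FER, 334 and 459 reads were counted in control and 404 and 535 in the libraries labelled Fer knockdown, a log2 fold change of 0.02 ± 0.17 (SE, edgeR quasi-likelihood test, adjusted p = 0.976). The FER mRNA level therefore goes against the label, and "Fer knockdown" below means the libraries labelled so. Counts on the mitochondrial chromosome were 16.9% and 19.4% of the control libraries and 9.62% and 9.37% of the other pair. Levels below are CPM, read counts scaled to a common library size, adjusted by TMM factors, which set aside such a shift, and fold changes are Fer knockdown over control. A gene is called changed at an adjusted p under 0.05 over all 15336 tested genes.

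None of the splicing factor genes was called changed. Of the 46, 43 had enough counts to be tested and 0 passed in edgeR's quasi-likelihood test, where 0.646% of all tested genes passed (0.280% above control and 0.365% below). At an unadjusted p under 0.05 there were 9 of the 43 (20.9%), 5 above control and 4 below, beside 17.7% of all genes. The smallest adjusted p was 0.0659, for SRSF9, followed by 0.0831 for HNRNPUL1 and 0.0992 for HNRNPA0. DESeq2 called these 3 of 42 genes (7.14%, beside 4.90% of all genes), and limma-voom called 0 (1.16% of all genes). The median log2 fold change of the 43 genes was 0.02, that of all genes 0.01, and 22 genes lay above 0 and 21 below. Their summed level was 9500 and 9982 CPM in control and 9473 and 9874 CPM in Fer knockdown.

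Most of these values were bounded closely. The 95% interval of the fold change lay within 2-fold in either direction for 42 of the 43 genes, and within 1.5-fold for 35, each interval taken for a single gene. Over all tested genes the shares were 75.6% and 42.7%. That background was not matched for read depth, on which the width of an interval depends. The exception at 2-fold was SRSF12, at 8 to 14 counts a library.

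The groups did not overlap for 23 of the 43 genes. Both Fer knockdown libraries lay above both controls for 12 genes (27.9%, beside 25.8% of all genes), and below both for 11 (25.6%, beside 23.4%). These shares are near the background. Scaling by library totals alone, which moved the median of all genes from 0.01 to 0.18, turned the split into 26 above and 3 below (45.3% and 11.5% of all genes). With that scaling 3 of the 43 genes were called, beside 2.89% of all genes.

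**Figure D1:**
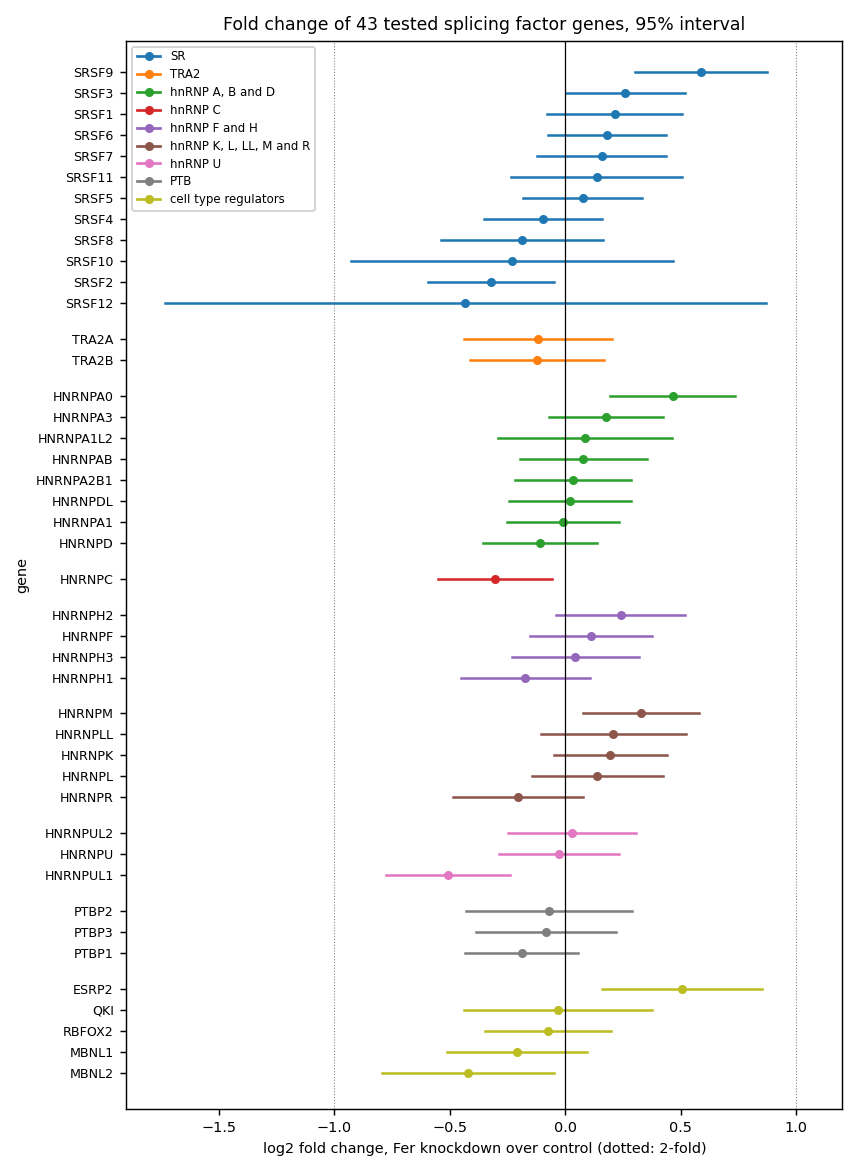
Log2 fold change (horizontal axis, Fer knockdown over control) of the 43 tested genes on the vertical axis, coloured by family, with 95% intervals as lines. The points run from -0.51 for HNRNPUL1 to 0.59 for SRSF9, and the interval of SRSF12 alone passes the dotted 2-fold lines.

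The call of 0 depended on the control libraries. Without control replicate 1, 19 of 43 genes passed, 8 above control and 11 below, where 29.5% of all genes passed. Without control replicate 2, 13 of 44 passed, 9 above and 4 below, beside 20.6% of all genes. Without either Fer knockdown library 0 passed (0.713% and 0.352% of all genes). The spread was wider within the control pair than within the Fer knockdown pair: over the 43 genes the median absolute log2 difference was 0.14 between the controls and 0.07 between the Fer knockdown libraries, and over all genes 0.26 and 0.12.

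Sequence around the transcription start is shown for the 2 genes with the smallest p on each side, SRSF9 and HNRNPA0 above control and HNRNPUL1 and HNRNPC below it, so that these promoters can be set against each other. Each window holds 250 bases before and 50 bases from the start, from RefSeq on GRCh38.p14. Capitals mark matches, on either strand, to the CCAAT box (CCAAT), the GC box (GGGCGG), the TATA box (TATAAA), the ETS core (CCGGAA), the E-box (CACGTG) and the cyclic AMP response core (TGACGT).
SRSF9, chr12:120469699-120469998, minus strand: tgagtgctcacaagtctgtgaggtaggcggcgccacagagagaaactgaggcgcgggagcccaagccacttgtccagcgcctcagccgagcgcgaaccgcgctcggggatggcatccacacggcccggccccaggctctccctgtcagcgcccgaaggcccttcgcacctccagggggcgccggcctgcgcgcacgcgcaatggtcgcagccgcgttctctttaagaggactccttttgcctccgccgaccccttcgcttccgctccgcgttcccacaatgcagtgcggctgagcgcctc
HNRNPA0, chr5:137754314-137754613, minus strand: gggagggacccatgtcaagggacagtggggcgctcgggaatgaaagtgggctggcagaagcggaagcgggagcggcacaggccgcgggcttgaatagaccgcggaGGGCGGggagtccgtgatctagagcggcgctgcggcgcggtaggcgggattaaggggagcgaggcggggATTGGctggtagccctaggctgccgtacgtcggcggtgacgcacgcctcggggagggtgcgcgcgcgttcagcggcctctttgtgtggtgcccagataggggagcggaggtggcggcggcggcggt
HNRNPUL1, chr19:41262307-41262606, plus strand: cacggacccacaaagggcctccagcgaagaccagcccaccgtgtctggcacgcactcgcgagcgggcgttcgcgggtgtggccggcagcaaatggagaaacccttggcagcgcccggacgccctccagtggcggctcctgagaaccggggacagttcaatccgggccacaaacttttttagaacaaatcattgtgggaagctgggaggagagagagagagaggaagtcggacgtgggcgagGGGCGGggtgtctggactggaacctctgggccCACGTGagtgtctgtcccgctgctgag
HNRNPC, chr14:21269393-21269692, minus strand: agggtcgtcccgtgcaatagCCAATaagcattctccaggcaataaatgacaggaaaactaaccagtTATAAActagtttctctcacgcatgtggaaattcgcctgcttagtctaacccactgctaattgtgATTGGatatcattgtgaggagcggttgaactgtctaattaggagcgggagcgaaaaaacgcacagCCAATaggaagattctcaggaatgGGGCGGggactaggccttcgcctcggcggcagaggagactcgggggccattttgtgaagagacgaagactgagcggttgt

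SRSF9 matched none of the 6 motifs at a GC content of 68.3%, with 33 CpG dinucleotides. HNRNPA0 held 1 CCAAT box and 1 GC box (GC content 70.3%), and HNRNPUL1 held 1 GC box and 1 E-box (63.7%). HNRNPC was the poorest of the 4 in GC (49.3%) and held 3 CCAAT boxes, 1 GC box and 1 TATA box. RefSeq windows were matched for 39 of the 46 genes, with a median GC content of 64.0% against 58.7% over 35116 windows. A GC box was found in 26 of the 39 (66.7%, against 45.0% of all windows), a CCAAT box in 18 (46.2% against 34.6%) and a TATA box in 5 (12.8% against 11.5%). An E-box was found in 7 (17.9% against 7.26%), the cyclic AMP core in 6 (15.4% against 7.98%) and the ETS core in 8 (20.5% against 17.2%). The median number of CpG dinucleotides was 30 in the matched genes and 14 over all windows. Each gene gave 1 window, whereas the background held every window, and the motif shares were not matched for base composition. These matches describe letters in a window, and no binding was measured.

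Among the 12 SR genes, SRSF9 stood furthest from control. SRSF9 encodes a small SR protein closely related to SRSF1. It had 91.0 and 82.5 CPM in the control libraries and 124 and 137 CPM in Fer knockdown. Both Fer knockdown libraries lay above both controls. The log2 fold change was 0.59 ± 0.13 (SE; 95% interval 0.30 to 0.88; edgeR adjusted p = 0.0659). In the GENCODE annotation 46.2% of the exonic bases of SRSF9 are shared with GATC, a mitochondrial amidotransferase gene. GATC had 15.8 and 18.2 CPM in control and 17.6 and 18.0 CPM in Fer knockdown (log2 fold change 0.07, edgeR adjusted p = 0.874). How reads in the shared bases were assigned is not known, so the counts of SRSF9 are uncertain. The part of these bases in the SRSF9 value was not tested.

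SRSF2, a marker protein of nuclear speckles, lay on the other side. Its control libraries had 239 and 219 CPM and its Fer knockdown libraries 173 and 194 CPM. The groups did not overlap, and the log2 fold change was -0.32 ± 0.12 (SE; 95% interval -0.59 to -0.05; edgeR adjusted p = 0.212). Of the exonic bases of SRSF2, 36.7% are shared with MFSD11 and the microRNA gene MIR636, so its counts are uncertain. MFSD11 was at 19.8 and 19.9 CPM in control and 23.7 and 24.8 CPM in Fer knockdown (log2 fold change 0.29, edgeR adjusted p = 0.337). SRSF8, which encodes a protein much like SRSF2, had 17.95 and 21.03 CPM in control and 17.3 and 16.9 CPM in Fer knockdown, again without overlap (log2 fold change -0.19, edgeR adjusted p = 0.583).

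SRSF3, the smallest SR protein, had 180.3 and 179 CPM in control and 209 and 222 CPM in Fer knockdown, a log2 fold change of 0.26 ± 0.12 (SE, edgeR adjusted p = 0.275). The control pair was nearly equal there. SRSF1, the founding member of the family, had 40.9 and 42.8 CPM in control and 47.9 and 49.2 CPM in Fer knockdown (log2 fold change 0.21, edgeR adjusted p = 0.436). Since 60.7% of its exonic bases overlap other annotated transcripts, its counts are uncertain. SRSF6 had 188 and 192 CPM against 211 and 220 CPM, and SRSF7, which carries a zinc knuckle, 139 and 126 CPM against 139 and 155 CPM. In these 3 genes too both Fer knockdown libraries lay above both controls, by a narrow margin in SRSF7.

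SRSF4 lay just below control without overlap, at 184 and 189 CPM against 176 and 173 CPM (log2 fold change -0.10). SRSF5 overlapped, at 238 and 252 CPM in control and 249 and 268 CPM in Fer knockdown. SRSF11, a more distant member that acts with the U2AF factor, had 127 and 184 CPM in the controls and 170 and 172 CPM in Fer knockdown. Its control libraries lay on either side of the Fer knockdown pair. SRSF10, known as a splicing repressor when it loses its phosphates, was low, at 134 and 71 counts in control and 95 and 111 counts in Fer knockdown. SRSF12, the least abundant SR gene, had 14 and 9 counts against 8 and 12. As a family the 12 genes summed to 1451.5 and 1491 CPM in control and 1521 and 1610 CPM in Fer knockdown, with 0 called, 7 fold changes above 0, 5 below and a median of 0.11.

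TRA2A and TRA2B encode SR-like proteins that bind purine-rich enhancers. TRA2A had 66.7 and 83.4 CPM in control and 67.9 and 70.4 CPM in Fer knockdown. TRA2B had 146 and 168 CPM in control and 136 and 152 CPM in Fer knockdown. The groups overlapped for both, with log2 fold changes of -0.12 each (edgeR adjusted p = 0.722 and 0.673).

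In the hnRNP A, B and D family, HNRNPA0 had the largest fold change, though it was not called. HNRNPA0, which binds AU-rich elements of inflammatory mRNAs, had 231 and 205 CPM in control and 289 and 314 CPM in Fer knockdown. Both Fer knockdown libraries lay above both controls, with a log2 fold change of 0.47 ± 0.12 (SE; 95% interval 0.20 to 0.74; edgeR adjusted p = 0.0992). No exon of another gene overlaps it in the annotation. HNRNPA1, the most abundant member and a general exon repressor, had 948 and 889 CPM in control and 936 and 889 CPM in Fer knockdown. Its log2 fold change was -0.01, with a 95% interval of -0.25 to 0.23. HNRNPA2B1, which binds UAG motifs, had 798 and 834 CPM in control and 792 and 879 CPM in Fer knockdown (log2 fold change 0.03, interval -0.22 to 0.29).

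HNRNPA3 had 361 and 374 CPM in control and 410 and 422 CPM in Fer knockdown, without overlap (log2 fold change 0.18, edgeR adjusted p = 0.445). HNRNPD, also known as the AU-rich element binding factor, had 377 and 379 CPM in control and 344 and 357 CPM in Fer knockdown, also without overlap but on the lower side (log2 fold change -0.11, edgeR adjusted p = 0.658). HNRNPAB, HNRNPDL and HNRNPA1L2 overlapped between the groups, with log2 fold changes of 0.08, 0.02 and 0.09. HNRNPA1 and HNRNPA1L2 share 25.4% and 58.5% of their 50-base stretches with transcripts of other genes, so reads may be split between them and pseudogenes.

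HNRNPC, which binds uridine tracts and keeps cryptic exons out of mRNA, had nearly equal control libraries. It had 402 and 404 CPM in control and 331 and 321 CPM in Fer knockdown, a log2 fold change of -0.31 ± 0.11 (SE; 95% interval -0.55 to -0.06; edgeR adjusted p = 0.193). Both Fer knockdown libraries lay below both controls. The HNRNPC-like genes HNRNPCL1 and HNRNPCL2 had 1 count each, in replicate 1 of Fer knockdown, and were not tested.

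HNRNPM, a splicing regulator studied in epithelial-mesenchymal transition, had 219.5 and 214 CPM in control and 273 and 271 CPM in Fer knockdown. Within each group the libraries were nearly equal, and the log2 fold change was 0.33 ± 0.11 (SE; 95% interval 0.08 to 0.58; edgeR adjusted p = 0.176). HNRNPK, which binds cytidine-rich RNA, had 448 and 461 CPM against 509 and 532 CPM (log2 fold change 0.20, edgeR adjusted p = 0.393). HNRNPLL, known for CD45 splicing in lymphocytes, had 27.9 ± 1.32 CPM in control (SD, n = 2) and 32.3 ± 1.64 CPM in Fer knockdown (log2 fold change 0.21, edgeR adjusted p = 0.488). In both the Fer knockdown libraries lay above the controls. HNRNPL, its relative that binds CA repeats, had 161 and 175 CPM against 171 and 199 CPM, which overlap. HNRNPL shares 27.8% of its 50-base stretches with transcripts of other genes, so its counts are uncertain. HNRNPR had 174 and 204 CPM in control and 163 and 165 CPM in Fer knockdown, the last pair below both controls (log2 fold change -0.21, edgeR adjusted p = 0.434). It moved to -0.32 when control replicate 1 was left out and to -0.11 when control replicate 2 was.

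The hnRNP F and H proteins bind runs of guanines. HNRNPH1, the most abundant of them in CPM, had 664 and 810 CPM in control and 646 and 662 CPM in Fer knockdown, so that control replicate 1 was close to the Fer knockdown pair (log2 fold change -0.17, edgeR adjusted p = 0.517). HNRNPH2 had 59.7 and 61.3 CPM in control and 70.0 and 72.9 CPM in Fer knockdown, without overlap on the upper side (log2 fold change 0.24 ± 0.13 SE, edgeR adjusted p = 0.357). Of its exonic bases 16.3% are shared with the annotated gene RPL36A-HNRNPH2, so its counts are uncertain. HNRNPF and HNRNPH3 overlapped between the groups, at log2 fold changes of 0.11 and 0.04.

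HNRNPUL1, which encodes a relative of the chromatin- and RNA-binding protein hnRNP U, was the gene furthest below control. It had 563 and 658 CPM in control and 418 and 441 CPM in Fer knockdown. Both Fer knockdown libraries lay below both controls, with a log2 fold change of -0.51 ± 0.12 (SE; 95% interval -0.78 to -0.24; edgeR adjusted p = 0.0831). On chromosome 19 its exons share 3.29% of their bases with TGFB1, a gene that was itself lower, at 252 and 242 CPM in control and 160 and 157 CPM in Fer knockdown (log2 fold change -0.64, edgeR adjusted p = 0.0436). The part of these shared bases in the HNRNPUL1 value was not tested. HNRNPU had 438 and 491 CPM against 447 and 465 CPM, and HNRNPUL2 had 91.5 and 86.4 CPM against 87.5 and 94.0 CPM. Both overlapped between the groups, with intervals of -0.29 to 0.23 and -0.25 to 0.31. Of the exonic bases of HNRNPUL2, 44.1% are shared with the annotated gene HNRNPUL2-BSCL2, so its counts are uncertain.

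**Figure D2:**
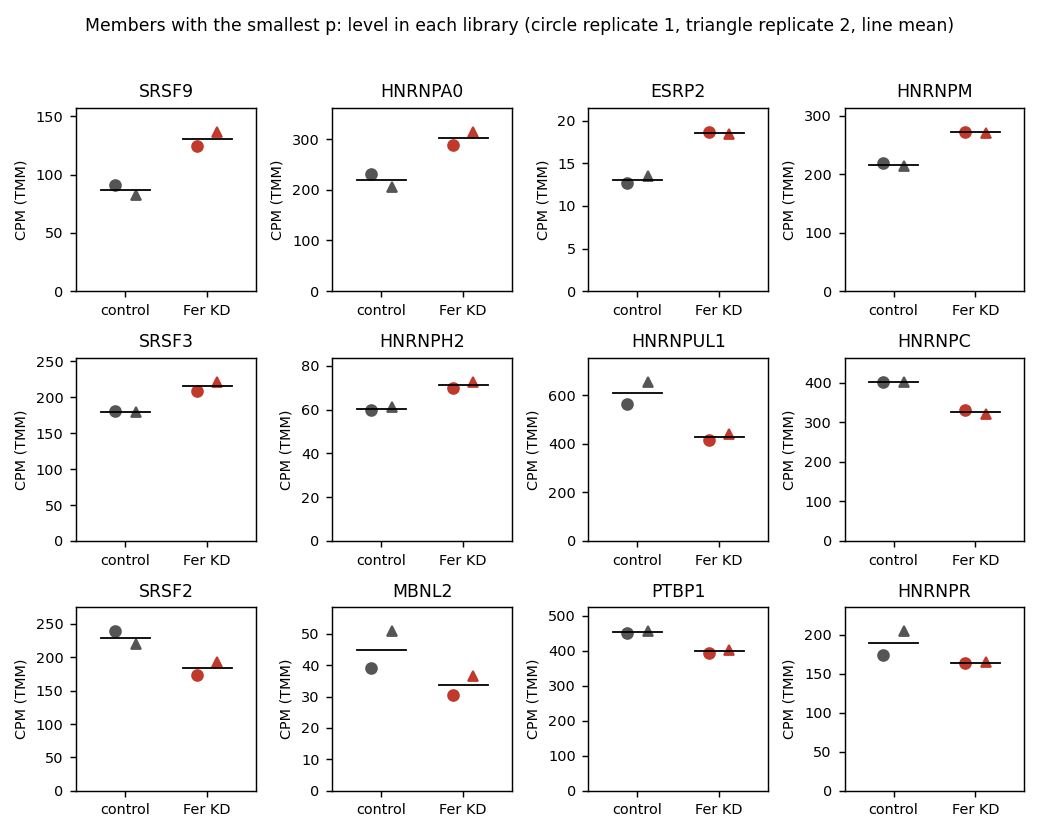
Level in CPM (vertical axes, from 0) in each library of the 6 genes with the smallest p above control and the 6 below it. Circles are replicate 1, triangles replicate 2 and lines the group means. The genes were picked by p, and in all 12 panels the groups do not overlap. Of the 43 tested members 12 lay wholly above and 11 wholly below control, beside 25.8% and 23.4% of all genes. In HNRNPC and PTBP1 the control pair lies almost on its mean.

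PTBP1, a repressor of many tissue-restricted exons, had 451 and 455 CPM in control and 393 and 402 CPM in Fer knockdown. The groups did not overlap, and the log2 fold change was -0.19 ± 0.11 (SE; 95% interval -0.43 to 0.06; edgeR adjusted p = 0.410). PTBP2, its neuronal relative, had 20.8 and 25.3 CPM in control and 20.8 and 23.1 CPM in Fer knockdown. PTBP3 had 71.4 and 82.4 CPM in control and 69.1 and 76.1 CPM in Fer knockdown. The groups overlapped for both relatives, with log2 fold changes of -0.07 and -0.08.

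Of the regulators tied to cell type, ESRP2 was the one above control. ESRP2 promotes epithelial exon choice. It had 12.7 and 13.5 CPM in control and 18.7 and 18.4 CPM in Fer knockdown, a log2 fold change of 0.50 ± 0.16 (SE; 95% interval 0.16 to 0.85; edgeR adjusted p = 0.142). Both Fer knockdown libraries lay above both controls, and the libraries within a group differed little. ESRP1, its relative, was almost absent, with 15 and 4 counts in control and 5 and 2 counts in Fer knockdown, and was not tested.

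MBNL2, one of the muscleblind proteins known from myotonic dystrophy, had 39.0 and 50.8 CPM in control and 30.6 and 36.4 CPM in Fer knockdown (log2 fold change -0.42 ± 0.17 SE, 95% interval -0.79 to -0.05, edgeR adjusted p = 0.231). It moved to -0.60 when control replicate 1 was left out and to -0.24 when control replicate 2 was. MBNL1 had 72.6 and 85.7 CPM against 69.7 and 67.3 CPM (log2 fold change -0.21, edgeR adjusted p = 0.463). In both, the Fer knockdown libraries lay below the controls. RBFOX2 had 175.3 and 199.8 CPM in control and 175.5 and 181 CPM in Fer knockdown, and QKI had 45.7 and 66.3 CPM against 50.3 and 59.4 CPM. The 2 QKI controls enclosed the Fer knockdown pair.

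These regulators were read beside markers of cell type. Of 10 epithelial markers, all tested, 0 were called, 5 had fold changes above 0 and 5 below. The keratin KRT7 had 309 and 248 CPM in control and 211 and 212 CPM in Fer knockdown, without overlap (log2 fold change -0.40, edgeR adjusted p = 0.169; -0.23 without control replicate 1). The laminin gene LAMA3 also lay below control, at 85.3 and 96.5 CPM against 78.2 and 79.0 CPM. The keratin KRT18 ran from 745 to 965 CPM over the 4 libraries. On the upper side the junction gene CDH1 had 7.53 and 7.33 CPM in control and 9.78 and 10.5 CPM in Fer knockdown, and EPCAM 2.74 and 3.41 CPM against 3.48 and 4.97 CPM. The mesenchymal filament gene VIM had 1455 and 1256 CPM in control and 903 and 896 CPM in Fer knockdown. Its log2 fold change was -0.59, which was not called (edgeR adjusted p = 0.0549). The summed level of the epithelial markers was 3583 and 2882 CPM in control and 3061 and 3032 CPM in Fer knockdown. Of 8 mesenchymal markers, 7 were tested and 1 fell, THY1, by 0.77 on the log2 scale (edgeR adjusted p = 0.0302; 0.142 and 0.516 without replicate 1 or 2 of Fer knockdown). Of the 7 fold changes 6 lay below 0 and 1 above, that of S100A4 at 0.28. The groups overlapped for S100A4, FN1 and CDH2. The 8 mesenchymal markers summed to 5723 and 6674 CPM in control and 4674 and 4567 CPM in Fer knockdown. Of 5 leukocyte markers, CD3E was at 0 in every library and CD14 had 24.7 and 15.8 CPM in control and 16.3 and 17.3 CPM in Fer knockdown. The other leukocyte markers reached at most 0.277 CPM. The part of these marker levels in the ESRP2 and MBNL values was not tested, and in such bulk libraries fewer cells of a type and less RNA per cell cannot be told apart.

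Ratios of 2 genes within a library do not depend on scaling. The groups were apart for 9 of 14 pairs and overlapped for 5, with no background share for gene pairs computed. The pairs were chosen after their values were seen, and with 2 libraries against 2 an exact permutation test cannot go below p = 0.333, so the ratios are given as values. Counts of SRSF9 were 0.381 and 0.376 times those of SRSF2 in control and 0.719 and 0.707 times in Fer knockdown. Counts of HNRNPM were 0.546 and 0.530 times those of HNRNPC in control and 0.824 and 0.845 times in Fer knockdown. The libraries of a group were close in both ratios, and each of these pairs joins genes that lay on opposite sides of control above. The counts of SRSF9 and SRSF2 are uncertain through the shared bases given above.

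Among relatives, HNRNPUL1 over HNRNPUL2 was 6.15 and 7.61 in control and 4.77 and 4.69 in Fer knockdown. Here control replicate 2 lay further off than control replicate 1, and the counts of HNRNPUL2 are uncertain through the shared bases given above. HNRNPH1 over HNRNPH2 was 11.1 and 13.2 against 9.23 and 9.08, and SRSF9 over SRSF1 was 2.22 and 1.93 against 2.60 and 2.78. Shared bases make the counts of HNRNPH2, SRSF9 and SRSF1 uncertain too. HNRNPA0 over HNRNPA1 was 0.244 and 0.231 against 0.309 and 0.354. By contrast TRA2A over TRA2B (0.458 and 0.496 against 0.498 and 0.464), PTBP1 over PTBP2 (21.7 and 18.0 against 18.9 and 17.4) and SRSF2 over SRSF8 (13.3 and 10.4 against 9.97 and 11.5) overlapped between the groups.

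**Figure D3:**
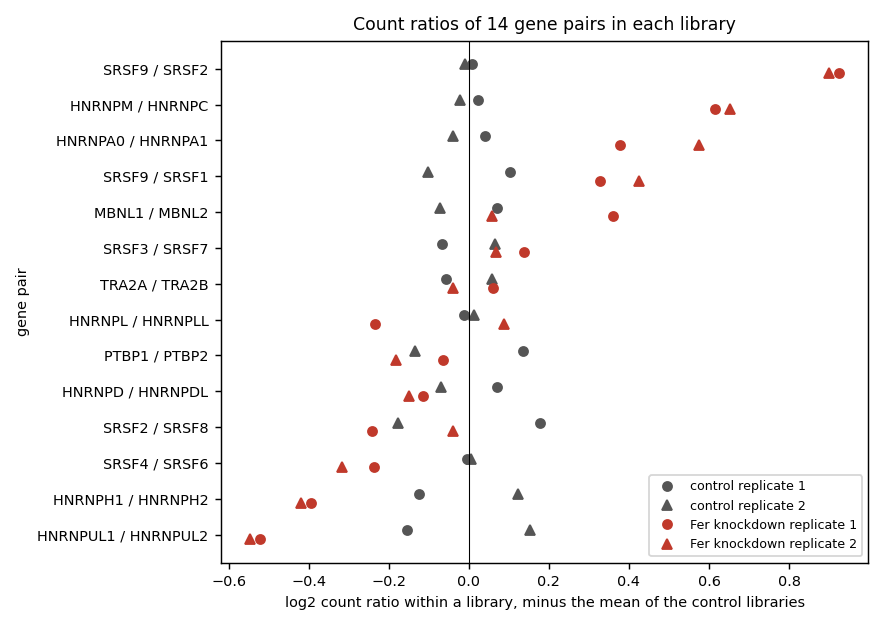
Log2 ratio of the counts of 2 genes within each library (horizontal axis), shown as the difference from the mean of the control libraries, for 14 gene pairs (vertical axis). SRSF9 over SRSF2 and HNRNPM over HNRNPC lie furthest to the right with both Fer knockdown libraries together, and HNRNPUL1 over HNRNPUL2 lies furthest to the left.

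Levels between genes were compared as CPM per kilobase of the deposited gene length. HNRNPA1 (180.4 ± 8.23 CPM per kilobase in control, SD, n = 2) and HNRNPAB (168 ± 19.2) were the most abundant, and their libraries overlapped. HNRNPUL1 (91.2 ± 10.0), HNRNPK (89.2 ± 1.86) and HNRNPA2B1 (88.0 ± 2.77) came next and did not differ beyond their spread. By this measure SRSF2 (77.0 ± 4.70) was the most abundant SR gene, followed by SRSF5 (45.7 ± 1.87) and SRSF6 (38.9 ± 0.579). The order depends on the lengths used: in plain CPM the control mean was 245 for SRSF5 and 229 for SRSF2. In Fer knockdown SRSF2 was at 61.6 ± 4.92 CPM per kilobase and HNRNPUL1 at 64.2 ± 2.46, while HNRNPA1 (179 ± 6.50) and HNRNPAB (177 ± 7.77) again overlapped. At the low end lay ESRP2 (2.52 ± 0.115 in control), PTBP2 (1.57 ± 0.216), SRSF10 (0.414 ± 0.196) and SRSF12 (0.121 ± 0.0420).

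**Figure D4:**
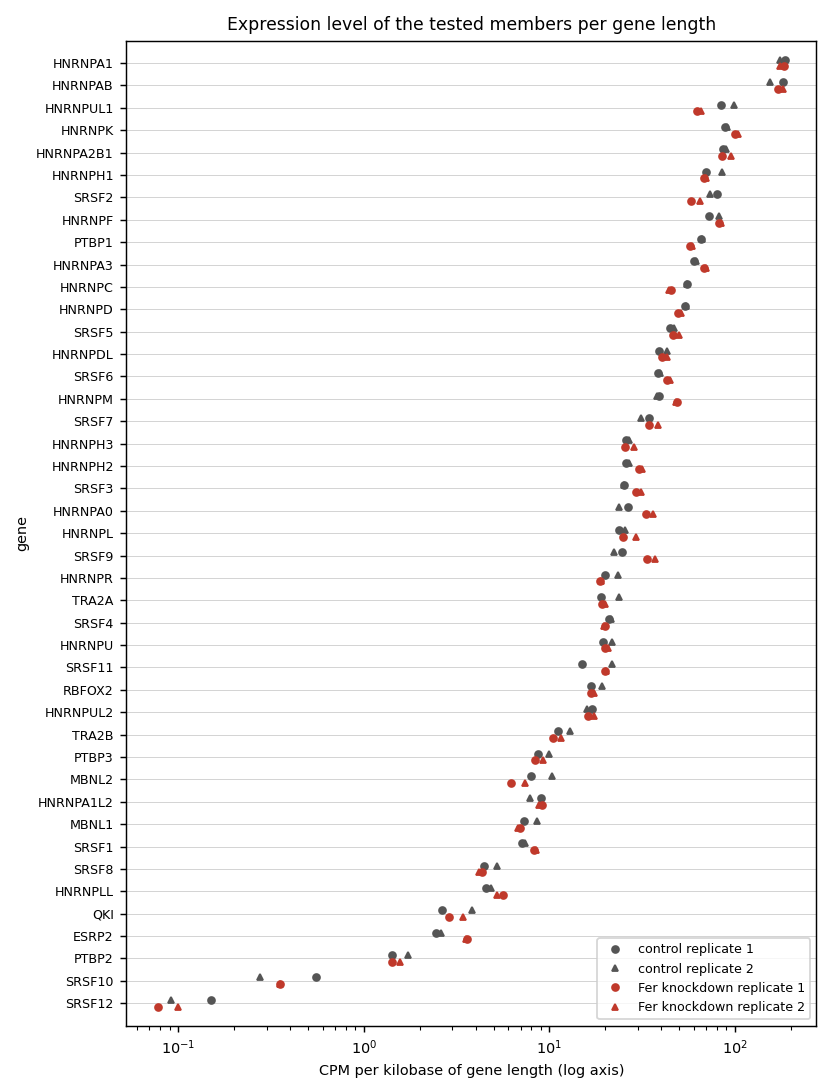
Level of the 43 tested genes (vertical axis, ordered by the control mean) in CPM per kilobase of gene length on a log axis, with 1 point for each library. The levels span from 0.121 CPM per kilobase for SRSF12 to 180.4 for HNRNPA1 in control, and the libraries of a gene lie close together beside that span.

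Other lists of the splicing machinery, also read with edgeR over all genes, gave 1 call. SF3B4, a subunit of the U2 particle that holds the branch site, fell by 0.70 on the log2 scale (SE 0.12, edgeR adjusted p = 0.0336), from 226 and 236 CPM to 144 and 140 CPM. It lost the call without replicate 1 or 2 of Fer knockdown (edgeR adjusted p = 0.375 and 0.583). It was the only one of 14 tested U2 and U2AF genes past the test, and the list median was -0.15. Both Fer knockdown libraries lay below both controls for 9 of the 14 and above both for 0 (23.4% and 25.8% of all genes). U2AF1 had 0 counts in every library and was not tested. Of 11 Sm and U1 protein genes 0 passed, with a median of 0.11. At an unadjusted edgeR p under 0.05 there were 7 of the 11, beside 17.7% of all genes. The groups did not overlap for 5 genes above control and 4 below it (25.8% and 23.4% of all genes). The closest to a call were SNRPE and SNRPB of the Sm ring, at log2 fold changes of 0.62 and 0.68 (edgeR adjusted p = 0.108 and 0.117). SNRPB had 219.6 and 136 CPM in the controls, and its value moved to 1.06 when control replicate 1 was left out and to 0.35 when control replicate 2 was.

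Genes that act directly on SR proteins were not called. Of 9 kinase and import genes 0 passed (median 0.03), with the Clk kinases CLK3 at -0.37 and CLK2 at -0.14 (edgeR adjusted p = 0.186 and 0.608). Of 10 SR-related genes 0 passed (median -0.09). SRRM2, the large scaffold of nuclear speckles, had 1255 and 1643 CPM in control and 1025 and 924 CPM in Fer knockdown, a log2 fold change of -0.57 (edgeR adjusted p = 0.0893). SRRM1 was at -0.50 (edgeR adjusted p = 0.244), with control libraries of 113 and 190.2 CPM. It moved to -0.83 when control replicate 1 was left out and to -0.10 when control replicate 2 was.

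Of 18 tested hnRNP relatives under other names 0 passed (median -0.07), with ILF2 at -0.37 and GRSF1, of the hnRNP F and H kind, at 0.43 (edgeR adjusted p = 0.141 and 0.145). MATR3 of this list was sparsely counted, at 11 and 23 counts in control and 41 and 44 in Fer knockdown. Its log2 fold change was 1.10 (edgeR adjusted p = 0.232), and a second MATR3 row held 0 to 2 counts a library. Of 12 genes of the tri-snRNP and the catalytic core 0 passed (median 0.02), with PRPF3 at -0.28 and CRNKL1 at 0.22 (edgeR adjusted p = 0.286 and 0.478), the latter 0.13 without control replicate 1. Of 13 other regulators of alternative splicing 0 passed (median -0.19), with the neuronal factor NOVA1 at -0.64 and NONO at -0.28 (edgeR adjusted p = 0.0858 and 0.258). Of 10 genes of nonsense-mediated decay, which removes many unproductive SR and hnRNP isoforms, 0 passed (median -0.06), with UPF2 at -0.34 and UPF3B at -0.30 (edgeR adjusted p = 0.340 and 0.357). Leaving out control replicate 1 gave -0.55 and -0.47, and leaving out control replicate 2 gave -0.12 and -0.14.

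**Figure D5:**
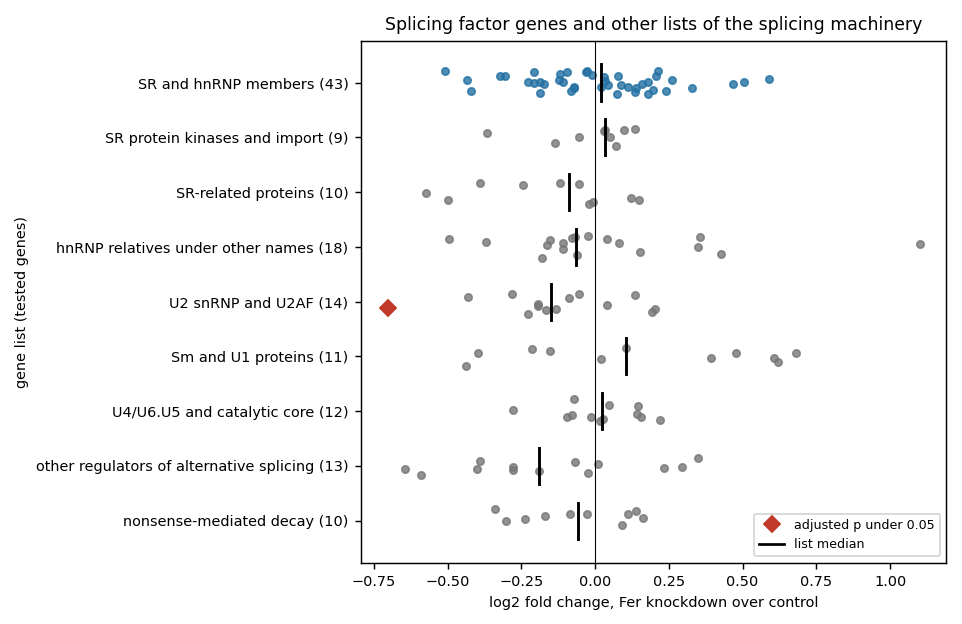
Log2 fold change (horizontal axis) of single genes in the SR and hnRNP set and in 8 other lists of the splicing machinery (vertical axis, tested genes in parentheses), with list medians as black bars. SF3B4 is the only gene past an adjusted p of 0.05, and the medians lie between -0.19 and 0.11.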

How the data were processed

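The deposited values are raw read counts for each gene in 4 libraries, listed by the authors beside an identifier, a symbol and a length. The tools HISAT2, featureCounts and DESeq2 and the builds hg19 and mm10 are named, without roles, per the submitters' processing notes. Strand setting and annotation: not given in the sources used here. One column name, that of Fer knockdown replicate 1, is shortened and was matched through its number. Of 39635 rows, 1 held no values and was left out.

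The main test was the quasi-likelihood test of edgeR 4.0.16, run in R 4.3.3 (filterByExpr, TMM, two-sided, no block, 2 residual degrees of freedom), with Benjamini-Hochberg adjustment over 15336 genes. Alternatives used DESeq2 1.42.0, limma 3.58.1, other scalings and filters, a replicate block, and each library left out. With a library left out, its group's remaining library is assumed to vary like the other group. Exon overlap and shared 50-base stretches came from GENCODE release 29, promoters from RefSeq. The code was tested on simulated counts.

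Full values were given to the 6 genes with the smallest p on each side, and the other genes by family. In other lists of the splicing machinery, called genes or else the 2 with the smallest p were named, and KRT7, CDH1, THY1 and CD14 follow the same rule among the markers. MATR3, U2AF1 and the markers KRT18, LAMA3, EPCAM, VIM, S100A4, FN1, CDH2 and CD3E were picked after their values were seen. The members and lists were chosen with earlier results of these data known.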

Additional observations from a re-analysis of the deposited data

How the results depend on the processing

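Of the 41 to 43 genes tested, 0 passed with DESeq2 size factors, upper-quartile factors or limma-voom (0.861%, 1.25% and 1.16% of all genes). With a filter of 5 CPM in 2 libraries or the mitochondrial genes left out 0 passed too (1.06% and 0.498% of all genes). With DESeq2, with no filter and with the replicate block 3 passed each (SRSF9, HNRNPA0 and HNRNPUL1), beside 4.90% of 11892, 4.14% of 23979 and 6.46% of 15336 genes tested, and with library totals alone 3 passed (SRSF9, HNRNPA0 and HNRNPM). Leaving out 1 library gave 0 to 19 passing genes and a median log2 fold change of -0.043 to 0.063. With library totals alone the median was 0.18, that of all genes 0.18, and 26 genes lay wholly above and 3 wholly below control. Over all genes the main count of 99 became 990 with the replicate block, 192 with upper-quartile factors, 443 with library totals (396 above control and 47 below, against 43 and 56), 583 with DESeq2, 178 with limma-voom and 993 with no filter, and 56 to 4734 with 1 library left out. The replicate numbers mark no stated pairing, and the differences between replicates 1 and 2 correlated at 0.04 between the groups over genes. Signs turned for CLK2 with library totals (0.029) and, with 1 library left out, for 4 markers: CD14 ranged from -0.58 to 0.083 and VWF from -1.26 to 0.88, the upper ends without control replicate 1, CDH5 from -1.05 to 0.16, the upper end without replicate 1 of Fer knockdown, and FOXJ1 from -0.21 to 0.80, the lower end without replicate 2. The 12 genes given in full, chosen by the smallest p in these data, kept their sign under all 13 alternatives. Their groups did not overlap, so leaving out 1 library could hardly turn a sign, and this is no check of them. Of the other 31 genes 10 changed sign with library totals. Without control replicate 1 and 2 it was 5 and 9, and without Fer knockdown replicate 1 and 2 it was 2 and 5. The cause of these shifts was not tested. SRSF10, SRSF12 and ESRP1 are limited by their counts. So are the endothelial markers VWF (6 to 25 counts a library) and CDH5 (14 to 38), and the airway marker FOXJ1 (54 to 127).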

Other observations

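Rows with pseudogene names, which the choice of genes left out, held few counts. The 75 HNRNPA1 pseudogene rows summed to 1172 and 1009 counts in control and to 1178 and 1549 in the libraries labelled Fer knockdown, 5.88% of the counts of HNRNPA1 itself. The 9 HNRNPC pseudogene rows had 188 and 214 counts in control and 304 and 466 in Fer knockdown, 3.55% of the counts of HNRNPC, which itself lay below control in Fer knockdown. The 16 HNRNPA3 pseudogene rows came to 2.32% of HNRNPA3, and the pseudogene row of SRSF9 to 0.653% of SRSF9.

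The 2 control libraries differed from each other most in QKI and SRSF11 among the tested genes other than the sparsely counted SRSF10 and SRSF12. QKI was 1.45 times and SRSF11 1.45 times as high in control replicate 2 as in control replicate 1, while replicate 2 of Fer knockdown was 1.18 and 1.01 times replicate 1.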
